A study of Mus musculus with 16 samples.

Results

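The immediate early genes described here are the 10 genes of the FOS family (Fos, Fosb, Fosl1 and Fosl2), the JUN family (Jun, Junb and Jund) and the early growth response family (Egr1, Egr2 and Egr3). They were chosen by name, as rows of a table of read counts for 24454 genes, whose Entrez identifiers were matched to mouse symbols, and all 10 had counts enough to be tested among 15487 genes. The counts came from RNA-seq of gastrocnemius, a calf muscle, taken from 16 mice that were 3 months old. HSALR mice, homozygous for line LR20b, carry an HSA transgene, a human skeletal actin gene with long CTG repeats that is expressed in skeletal muscle, and serve as a model of myotonic dystrophy type 1; the repeat RNA is therefore modelled in this tissue only. FVB/N mice, the background strain without the transgene, were the controls. Mice of either genotype received vehicle or AICAR, an activator of the energy-sensing kinase AMPK, at 500 mg/kg for 7 days. The groups held 3 vehicle-treated control mice (S445, S446 and S450), 3 AICAR-treated control mice (S447, S448 and S449), 5 vehicle-treated HSALR mice (S451, S452, S453, S458 and S459) and 5 AICAR-treated HSALR mice (S454, S455, S460, S462 and S463).

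Immediate early genes are transcribed within minutes of a stimulus, from factors such as SRF and CREB that are already in the cell, and their RNAs are short-lived. FOS and JUN proteins pair through leucine zippers to form the transcription factor AP-1, while EGR proteins are zinc finger factors that bind GC-rich sites and are held in check by the corepressors NAB1 and NAB2. In skeletal muscle these genes are known to respond to contraction, stretch, injury and nerve activity, and Egr3 is also known for its part in muscle spindle development.

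Promoter windows of 300 bases, from 250 bases before to 50 after the start of a gene in RefSeq on GRCm38.p6, the assembly behind the mm10 build of the counts, were found for 7 of the 10 genes. Of these 7, the windows of Fosb, Junb and Fos, whose levels spread most within groups, and of Jun, the most abundant, are printed because the factors said to bind such promoters also appear in the gene lists described further on. Capitals mark TGACG, the core of the cAMP response element, in the windows of Fos (chr12:85473640-85473939, plus strand), Fosb (chr7:19309996-19310295, minus strand) and Junb (chr8:84978699-84978998, minus strand), and TGACATCA, an AP-1-like site bound by JUN with ATF2, in that of Jun (chr4:95052173-95052472, minus strand).
Fos: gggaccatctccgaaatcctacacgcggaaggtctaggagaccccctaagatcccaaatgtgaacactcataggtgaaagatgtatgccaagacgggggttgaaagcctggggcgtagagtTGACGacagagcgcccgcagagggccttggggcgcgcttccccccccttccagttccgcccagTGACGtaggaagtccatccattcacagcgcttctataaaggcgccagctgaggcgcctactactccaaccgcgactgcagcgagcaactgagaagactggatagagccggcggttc
Fosb: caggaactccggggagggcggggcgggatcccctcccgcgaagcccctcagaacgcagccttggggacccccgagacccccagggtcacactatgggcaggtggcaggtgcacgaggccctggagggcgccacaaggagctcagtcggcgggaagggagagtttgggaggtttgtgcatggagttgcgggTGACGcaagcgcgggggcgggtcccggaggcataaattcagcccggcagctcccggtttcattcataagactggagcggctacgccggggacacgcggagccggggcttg
Junb: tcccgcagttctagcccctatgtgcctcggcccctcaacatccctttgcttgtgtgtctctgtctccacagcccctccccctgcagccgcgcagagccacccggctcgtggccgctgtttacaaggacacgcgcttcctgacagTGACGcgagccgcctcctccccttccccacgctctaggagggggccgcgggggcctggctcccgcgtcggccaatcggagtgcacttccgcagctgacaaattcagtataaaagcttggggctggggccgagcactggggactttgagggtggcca
Jun: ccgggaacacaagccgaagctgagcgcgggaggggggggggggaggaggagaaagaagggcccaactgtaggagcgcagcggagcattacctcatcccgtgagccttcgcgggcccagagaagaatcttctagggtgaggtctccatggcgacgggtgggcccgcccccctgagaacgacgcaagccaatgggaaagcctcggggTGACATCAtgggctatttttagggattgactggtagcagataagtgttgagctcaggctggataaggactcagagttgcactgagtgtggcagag

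On either strand, TGACG was found in windows of 4 genes (Fos, Fosb, Junb and Egr2), and 20.8% of all 32851 windows held it. In Fos it began 129 and 66 bases before the start, in Fosb 60 bases and in Junb 106 bases before it. TGACATCA, present in 3.62% of all windows, was found only in that of Jun among the 7, where it began 45 bases before the start. The EGR-type letters GCGGGGGCG or GCGTGGGCG, present in 3.47% of all windows, were found for Fosb and Fosl2, and in both they overlapped GGGCGG, which 35.7% of all windows held and which was also found for Fos, Jun and Egr2. A CArG box, the binding site of SRF, was found for Egr2, some of whose windows overlap, and 1.63% of all windows held one. TATAAA, in 13.6% of all windows, was found for Fos and Junb, and CCAAT, in 37.4%, for Jun, Junb and Egr2. Neither TGACGTCA (1.79% of all windows) nor TGACTCA or TGAGTCA (5.20%) was found for any of the 7, which says only that these letters are not in these windows.

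Library totals ran from 64890014 to 81987726 counts with a median of 73021286, and replicates of a group differed by 24.4 to 138 times the variance that counting alone gives. Levels are normalized CPM, a gene's counts scaled to a library total of the same fixed size with the trimmed mean of M values (TMM), unless RPKM, the same per kilobase of exon length, is named. The summed level of 6 muscle fibre markers was 103735 to 166175 normalized CPM across the mice, none of them at 0. The epidermal keratin Krt14 was above 1 CPM in 1 of 3 vehicle-treated control, 1 of 3 AICAR-treated control, 4 of 5 vehicle-treated HSALR and 0 of 5 AICAR-treated HSALR mice. The mouse S460 of the AICAR-treated HSALR group, and less so S447 of the AICAR-treated control group, stood apart in the genes described here, so results that rest on them are given with and without them. The mouse S446 of the vehicle-treated control group was also often the highest of its group, as given further on. Calls are those of edgeR's quasi-likelihood test with a Benjamini-Hochberg adjusted p under 0.05 over all genes tested. The labels do not say whether the mice were handled together or apart. The p-values set each contrast against the spread between these mice, and do not account for handling. In a whole muscle fewer cells of a type and less RNA per cell cannot be told apart.

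Per length, Jun was the most abundant of the 10, at a mean of 44.5 RPKM over the 16 mice. It was followed by Junb at 19.0 and Jund at 15.9 RPKM. Egr1 at 5.58, Fosl2 at 5.31 and Fos at 4.88 RPKM lay close together, and Egr2 at 0.682, Egr3 at 0.604, Fosb at 0.293 and Fosl1 at 0.182 RPKM were low. All 10 varied between mice of one group more than most genes did. The within-group SD of log2 CPM was 0.31 for Jund and 0.32 for Jun and Egr2, at the 74.1 to 75.5 percentile of all genes tested, 0.88 for Junb and 0.96 for Fosb, at the 97.5 and 98.0 percentile, and 0.17 for the median gene.

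**Figure D1:**
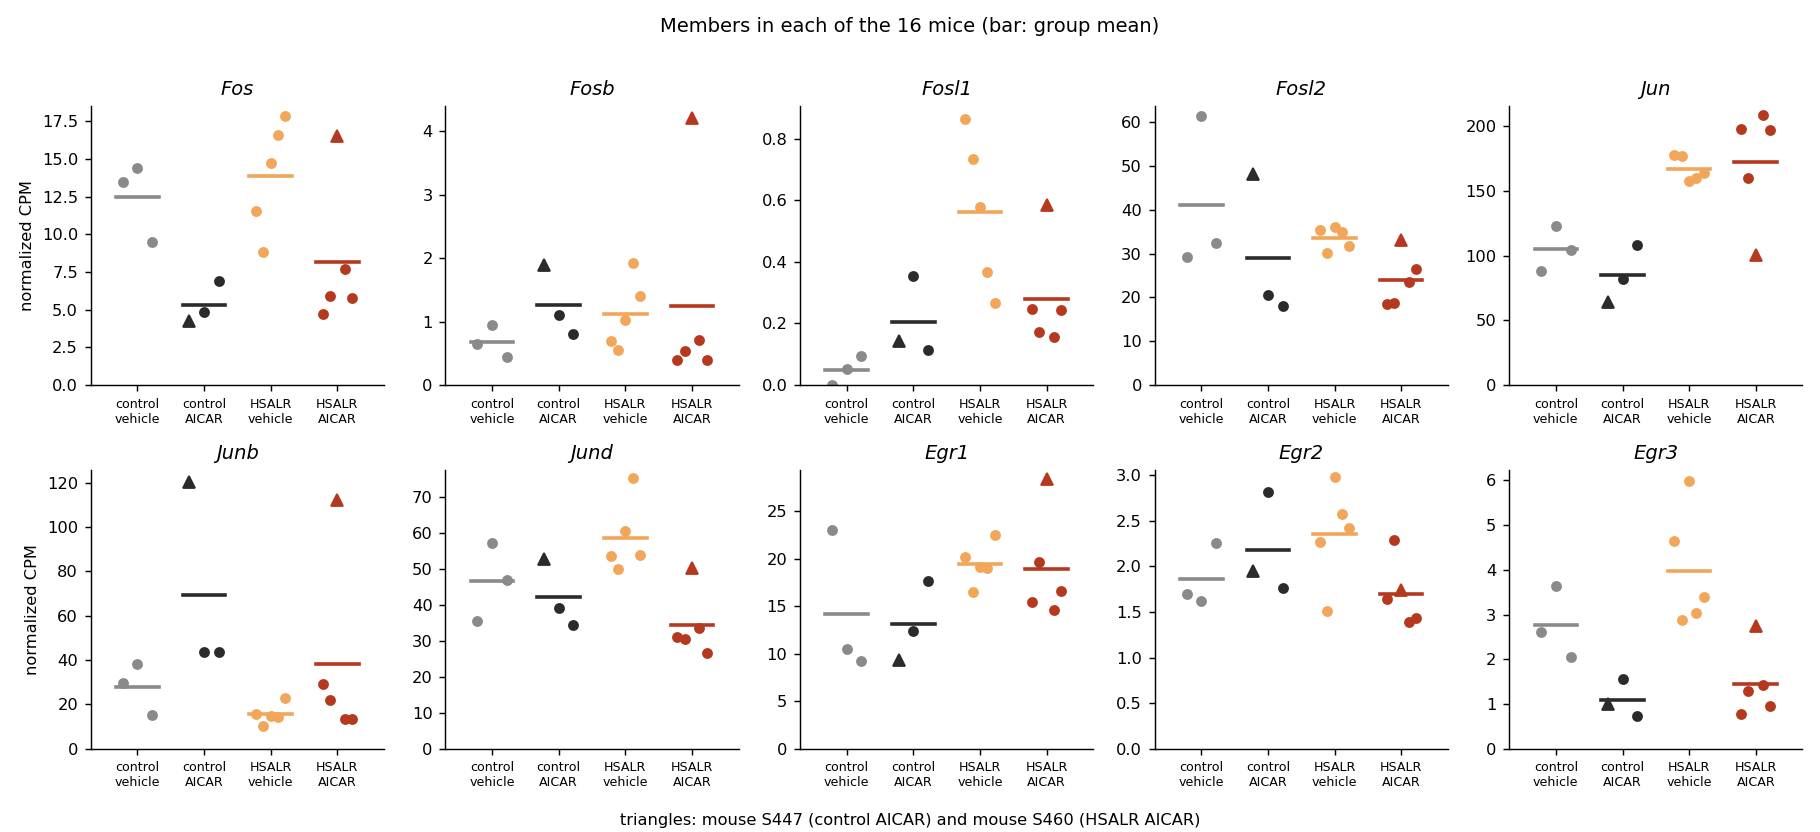
Normalized CPM (vertical axes, each from 0) of the 10 genes in the 16 mice, by group. Points are mice, bars are group means and triangles are S447 and S460. Jun sits at 157 to 177 in the vehicle-treated HSALR mice, above the 88.4 to 123 of the vehicle-treated controls, and S460 reaches 112 in Junb and 4.21 in Fosb.

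Fos (Entrez 14281; chromosome 12, 85473890 to 85477274, plus strand, 4 exons) encodes the founding partner of AP-1. Its level was 13.5, 14.4 and 9.48 CPM in the vehicle-treated control mice and 4.22, 4.88 and 6.89 in the AICAR-treated ones. Every AICAR-treated control mouse was thus lower than every vehicle-treated one, by a log2 fold change of -1.23 (SE 0.39), with an adjusted p of 0.0522 that missed the threshold. The 5 vehicle-treated HSALR mice had 11.5, 8.81, 14.8, 16.6 and 17.8 CPM, and the AICAR-treated HSALR mice had 4.73, 5.90, 16.5, 7.73 and 5.78. In this genotype 4 of 5 AICAR-treated mice lay under all vehicle-treated ones, and S460 lay among them. The log2 fold change was -0.77 (SE 0.30, 95% interval -1.41 to -0.13) with an adjusted p of 0.0692, and without S460 it was -1.20 with an adjusted p of 0.00116. Fos in vehicle-treated HSALR and control mice overlapped, with a log2 fold change of 0.16 (95% interval -0.58 to 0.89).

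Fosb (Entrez 14282; chromosome 7, 19302696 to 19310118, minus strand, 4 exons), whose protein pairs with JUN and whose splice form ΔFOSB is long-lived, was low. It had 0.640, 0.944 and 0.448 CPM in vehicle-treated and 1.89, 1.11 and 0.802 CPM in AICAR-treated controls. In HSALR it had 0.696, 0.557, 1.02, 1.92 and 1.40 CPM after vehicle and 0.398, 0.545, 4.21, 0.703 and 0.398 CPM after AICAR, the 4.21 being S460. The groups overlapped in all 4 comparisons and none was called. The AICAR contrast in HSALR turned from a log2 fold change of 0.15 to -1.13 (adjusted p 0.0393) without S460, and that of HSALR against control after AICAR went from -0.02 to -1.31 (adjusted p 0.0346). Without both S447 and S460 the latter was -0.91 with an adjusted p of 0.176, and not called.

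Fosl1 (Entrez 14283; chromosome 19, 5447698 to 5455938, plus strand, 4 exons) encodes FRA-1, an AP-1 partner without a strong transactivation domain. It had 0, 4 and 7 counts, or 0, 0.0510 and 0.0951 CPM, in the vehicle-treated controls. The vehicle-treated HSALR mice had 62, 54, 39, 30 and 20 counts, or 0.863, 0.734, 0.578, 0.365 and 0.267 CPM, all above the controls. Fosl1 rose in HSALR after vehicle by a log2 fold change of 3.46 (SE 0.72, adjusted p 0.00246), a fold that rests on few counts in the controls, and the call held in all 17 alternatives that gave a value, with an adjusted p of at most 0.013. After AICAR the control mice had 0.142, 0.353 and 0.115 CPM and the HSALR mice 0.247, 0.173, 0.583, 0.156 and 0.245 CPM, and these overlapped. The AICAR-treated controls thus lay above the vehicle-treated ones without overlap, at a log2 fold change of 2.02 (SE 0.79) and an adjusted p of 0.104. The AICAR contrast in HSALR was -0.998 (SE 0.49, adjusted p 0.148), and -1.45 with an adjusted p of 0.0417 without S460. The end of Fosl1 overlaps Ccdc85b on the opposite strand, and whether reads were counted by strand is not stated. Ccdc85b had 17.6, 20.5, 22.0, 25.5 and 25.1 CPM in the same vehicle-treated HSALR mice, and 15.5 to 18.3 CPM in the vehicle-treated controls. The part of reads from the opposite strand in the Fosl1 values was not tested.

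Fosl2 (Entrez 14284; chromosome 5, 32136472 to 32157840, plus strand, 4 exons) encodes FRA-2, another partner of JUN. It had 29.2, 61.5 and 32.4 CPM in vehicle-treated and 48.1, 20.6 and 18.02 CPM in AICAR-treated controls, with S446 and S447 high. In HSALR it had 35.3, 30.1, 36.1, 35.0 and 31.6 CPM after vehicle and 18.5, 18.8, 33.1, 23.4 and 26.4 CPM after AICAR, and S460, at 33.1, was the one AICAR-treated mouse inside the vehicle range. The AICAR contrast was a log2 fold change of -0.49 in HSALR (95% interval -1.04 to 0.07, adjusted p 0.186) and -0.51 in controls (95% interval -1.22 to 0.20, adjusted p 0.343). In controls it was -1.09 with an adjusted p of 0.0257 without S447. The genotype contrasts were -0.29 (95% interval -0.92 to 0.34) after vehicle and -0.27 (95% interval -0.90 to 0.37) after AICAR.

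Jun (Entrez 16476; chromosome 4, 95049036 to 95052222, minus strand, 1 exon) encodes the main DNA-binding partner of FOS. It had 88.4, 123 and 104 CPM in vehicle-treated controls and 177, 177, 157, 160 and 164 CPM in vehicle-treated HSALR mice. Every HSALR mouse was above every control, and Jun rose by a log2 fold change of 0.67 (SE 0.20, adjusted p 0.0245), or 1.59-fold. The call was lost without the control mouse S445 (log2 fold change 0.56, adjusted p 0.117) or S450 (0.66, adjusted p 0.0693). After AICAR the controls had 64.1, 82.2 and 108 CPM and the HSALR mice 198, 160, 100, 208 and 197 CPM. Of the HSALR mice only S460, at 100, lay inside the control range, and Jun was higher in HSALR by a log2 fold change of 1.02 (SE 0.21, adjusted p 0.00291), or 2.03-fold, a call kept in all 18 alternatives. Within a genotype, AICAR-treated and vehicle-treated mice overlapped, with log2 fold changes of 0.05 in HSALR (95% interval -0.32 to 0.42) and -0.31 in controls (95% interval -0.79 to 0.17).

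Junb (Entrez 16477; chromosome 8, 84976909 to 84978748, minus strand, 1 exon) encodes a JUN protein that activates some JUN targets weakly and is linked to the upkeep of muscle mass. It had 29.5, 38.2 and 15.3 CPM in vehicle-treated controls and 120, 43.7 and 43.7 CPM in AICAR-treated ones, with S447 at 120. The AICAR-treated controls lay above the vehicle-treated ones without overlap, at a log2 fold change of 1.32 (SE 0.69) with an adjusted p of 0.223, and of 0.65 with an adjusted p of 0.299 without S447 and S460. The HSALR mice had 15.5, 10.1, 14.6, 14.5 and 22.9 CPM after vehicle and 29.4, 22.2, 112, 13.3 and 13.6 CPM after AICAR, with S460 at 112. Their AICAR contrast was 1.29 (SE 0.54, adjusted p 0.0890), and 0.34 with an adjusted p of 0.527 without S460. HSALR against control after AICAR was -0.86 (SE 0.59, adjusted p 0.321) with all mice, -1.82 with an adjusted p of 0.00537 without S460, and -1.16 with an adjusted p of 0.0446 without S447 and S460. Junb overlaps Prdx2, which encodes a peroxidase, on the opposite strand. Prdx2 had 172 CPM in S460, against 166 to 185 CPM in the other AICAR-treated HSALR mice, and 163 CPM in S447, against 143 and 166 CPM in the other AICAR-treated controls. The part of reads from the opposite strand in the Junb values was not tested.

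Jund (Entrez 16478; chromosome 8, 70697739 to 70700616, plus strand, 1 exon) encodes the most constantly expressed of the JUN proteins. It had 53.8, 50.1, 60.6, 75.2 and 53.8 CPM in vehicle-treated HSALR mice and 31.0, 30.6, 50.3, 33.7 and 26.6 CPM in AICAR-treated ones. The groups met only at S460, at 50.3 against a lowest vehicle value of 50.1, and Jund fell with AICAR by a log2 fold change of -0.77 (SE 0.18, adjusted p 0.00533), a call kept in all 20 alternatives with an adjusted p of at most 0.0463. In controls it had 35.7, 57.3 and 47.0 CPM after vehicle and 52.8, 39.1 and 34.5 CPM after AICAR, which overlapped, at -0.15 (95% interval -0.63 to 0.34). The difference of these AICAR effects, HSALR minus control, was -0.62 (SE 0.29, unadjusted p 0.0480), with an adjusted p of 0.326. Jun and Jund are also overlapped by an antisense gene each (Junos and Gm11175), not analysed here.

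Egr1 (Entrez 13653; chromosome 18, 34861207 to 34864956, plus strand, 2 exons) encodes the founding member of its family and is often used as a marker of recent stimulation. It had 23.0, 10.5 and 9.20 CPM in vehicle-treated and 9.34, 12.4 and 17.6 CPM in AICAR-treated controls. In HSALR it had 20.1, 16.5, 19.1, 19.1 and 22.5 CPM after vehicle and 15.4, 19.6, 28.4, 14.6 and 16.6 CPM after AICAR. The groups overlapped in every comparison, and no contrast was called. The AICAR contrast was -0.04 in HSALR (95% interval -0.56 to 0.48) and -0.11 in controls (95% interval -0.79 to 0.56). The genotype contrast after vehicle was 0.45 (95% interval -0.16 to 1.06, adjusted p 0.267), and 0.99 with an adjusted p of 0.0168 without the control mouse S445, which held the highest control value.

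Egr2 (Entrez 13654; chromosome 10, 67534469 to 67542188, plus strand, 2 exons), known best for its part in myelination by Schwann cells, lay within 1.39 to 2.98 CPM in all mice. Its medians were 1.69 and 1.95 CPM in vehicle-treated and AICAR-treated controls. In HSALR it had 2.27, 1.51, 2.98, 2.57 and 2.43 CPM after vehicle and 1.65, 2.29, 1.74, 1.39 and 1.44 CPM after AICAR. These overlapped, at a log2 fold change of -0.46 (SE 0.19, unadjusted p 0.0291) with an adjusted p of 0.0883, which fell to 0.0264 without S452 and 0.0398 without S455. The difference of its AICAR effects, HSALR minus control, was -0.69 (SE 0.32, adjusted p 0.316). Of 7 Schwann cell markers none was called in this comparison, and their summed level was 127 to 307 CPM after vehicle and 118 to 203 CPM after AICAR, and their part in Egr2 was not tested.

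Egr3 (Entrez 13655; chromosome 14, 70077317 to 70082613, plus strand, 2 exons) had 4.63, 2.87, 5.97, 3.03 and 3.39 CPM in vehicle-treated HSALR mice and 0.782, 1.29, 2.75, 1.43 and 0.964 CPM in AICAR-treated ones. Every AICAR-treated mouse was below every vehicle-treated one, though S460, at 2.75, was only just below the 2.87 of S452. Egr3 fell by a log2 fold change of -1.46 (SE 0.32, adjusted p 0.00397), or 2.76-fold, and the call held in all 20 alternatives, with an adjusted p of at most 0.0391. In controls it had 2.62, 3.65 and 2.05 CPM after vehicle and 0.995, 1.57 and 0.730 CPM after AICAR, again without overlap, and fell by a log2 fold change of -1.33 (SE 0.42, adjusted p 0.0499). That call lay at the threshold and was lost in 12 of 16 alternatives, while the log2 fold change ran from -1.69 to -1.08 over the 16, with an adjusted p of 0.0942 without S445, 0.156 without S446, 0.0534 without S450, 0.117 without S447 and 0.174 without S449. The AICAR effects in the 2 genotypes differed by -0.13 (95% interval -1.26 to 0.99). The summed level of 4 muscle spindle markers was 244 to 332 CPM in vehicle-treated and 169 to 436 CPM in AICAR-treated HSALR mice, and 408 to 1221 CPM and 246 to 500 CPM in the controls. None of the 4 was called with AICAR in either genotype, and the part of spindles in Egr3 was not tested.

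**Figure D2:**
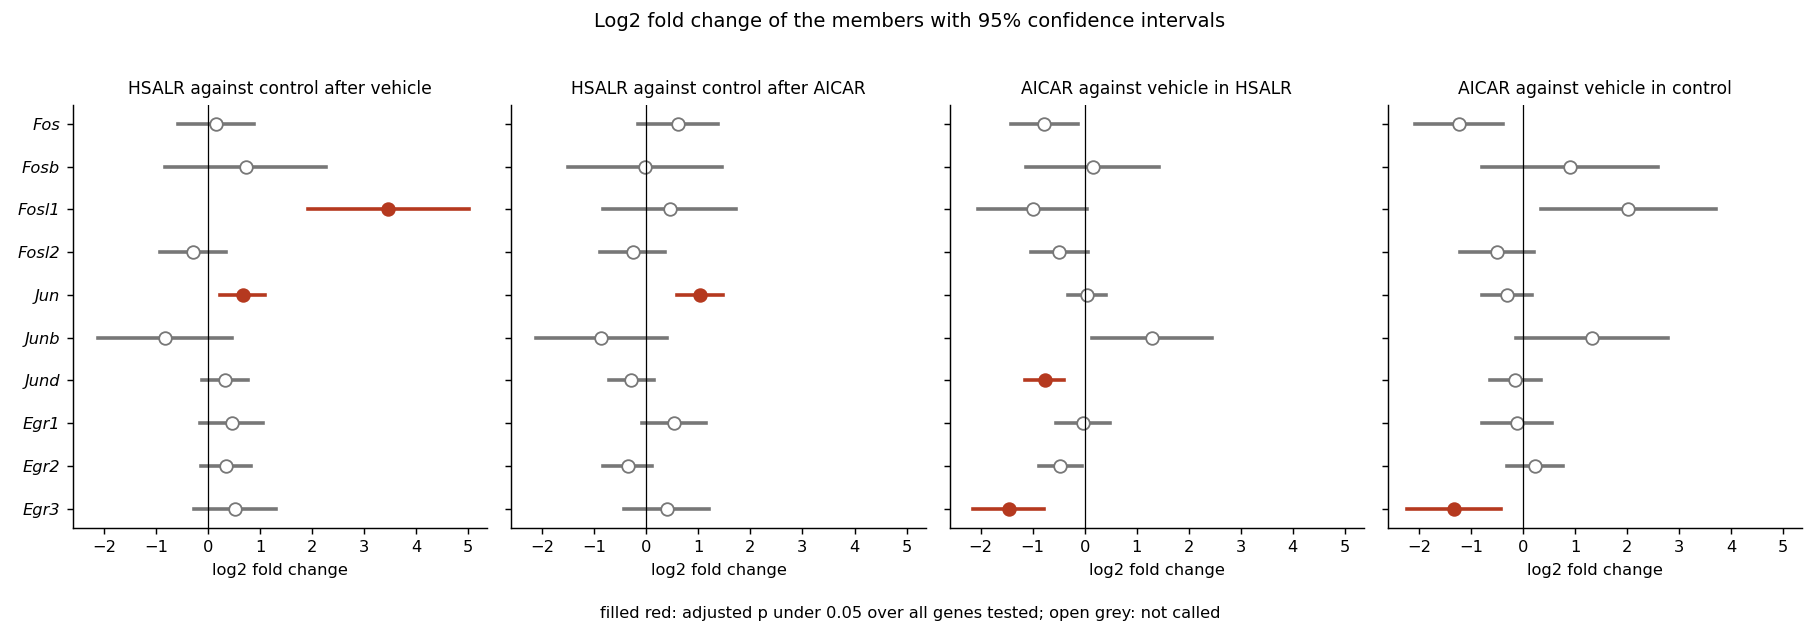
Log2 fold changes (horizontal axes) of the 10 genes in the 4 comparisons, with 95% confidence intervals of edgeR's quasi-likelihood test. Filled red points passed an adjusted p of 0.05 over all genes tested: Fosl1 at 3.46 and Jun at 0.67 after vehicle, Jun at 1.02 after AICAR, Jund at -0.77 and Egr3 at -1.46 with AICAR in HSALR, and Egr3 at -1.33 with AICAR in controls.

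In HSALR against control mice after vehicle, Fosl1 and Jun were higher and the other 8 genes were not called. That is 2 of 10, where 26.9% of all genes tested were called, 15.4% higher and 11.5% lower. Both were also free of overlap, where 29.7% of all genes were. The share called among the 10 was thus no larger than among all genes. The 28 other immediate early genes, of which 27 were tested, gave 3 higher and 4 lower calls, with a median log2 fold change of -0.27, against 0.01 for all genes. Atf3, a stress-induced partner and competitor of AP-1, rose from 7.63 to 22.3 CPM in controls to 102 to 255 CPM in HSALR mice, a log2 fold change of 3.57 (SE 0.46, adjusted p 4.6e-05). Of 12 other AP-1 partners and competitors, Atf3 was the 1 called higher, and 2 were lower, Atf2 at -0.30 and Atf7 at -0.36. Nr4a2, which encodes an orphan nuclear receptor, fell by 2.44 on the log2 scale (adjusted p 0.0175), which without S446 was -0.52 and not called (adjusted p 0.58), and Zfp36, which encodes a protein that speeds the decay of AU-rich RNAs, fell by 0.89 (adjusted p 0.0147), a call lost without S450 (adjusted p 0.106).

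Of 22 genes known as AP-1 or EGR targets, 21 were tested, and 6 were higher and 2 lower in vehicle-treated HSALR mice (median 0.07). The higher ones included Timp1, an inhibitor of matrix metalloproteinases, at 2.93 (SE 0.40, adjusted p 8.96e-05), the collagenase Mmp13 at 2.45 (SE 0.60, adjusted p 0.00722) and Hbegf, a ligand of the EGF receptor, at 1.60 (SE 0.25, adjusted p 0.000272). These 3 and Atf3 were called in all 8 fits that left out 1 mouse. Of 13 MAP kinase phosphatases and feedback inhibitors, 2 were higher and none lower, Dusp5, an ERK phosphatase in the nucleus, by 1.45 (SE 0.34, adjusted p 0.00520) and Dusp4 by 0.86 (adjusted p 0.0102), the latter not without S445 (adjusted p 0.0641). Of 11 kinases of the MAP kinase and JNK pathways, 1 was lower, Mapk9, which encodes JNK2, by a log2 fold change of -0.41 (adjusted p 0.000356). Of 15 upstream factors, 2 were higher, Elk1, a partner of SRF, at 0.38 (adjusted p 0.00914) and Crem at 0.42 (adjusted p 0.0151, and up to 0.0646 without S445 or S450), and 1 was lower, the CREB coactivator Crtc2 at -0.44 (adjusted p 0.000357). Srf differed by 0.0049 (SE 0.06), Nab1 by -0.11 (SE 0.10) and Nab2 by 0.51 (SE 0.27, adjusted p 0.178).

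Other cell types also differed between these groups. All 5 endothelial markers were lower in vehicle-treated HSALR mice, with a summed level of 192 to 238 CPM against 284 to 324 CPM in controls. Of 7 macrophage and neutrophil markers 3 were higher and none lower, with a summed level of 92.1 to 108 CPM against 75.7 to 101 CPM. Of 4 muscle spindle markers 2 were lower, with a summed level of 244 to 332 CPM against 408 to 1221 CPM, and 1 of 3 smooth muscle markers was lower and 1 of 4 satellite cell markers higher. The part of these cells in the values of the 10 genes, Atf3 or the target genes was not tested.

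In HSALR against control mice after AICAR, Jun was higher and the other 9 were not called, where 21.8% of all genes tested were called, 12.2% higher and 9.64% lower. None of the 10 was free of overlap, as 26.5% of all genes were. Of the 27 other immediate early genes 1 was higher and 3 were lower (median -0.15). The higher one was Ccn1, a matrix protein gene that responds to stretch, at a log2 fold change of 1.26 (SE 0.22, adjusted p 0.000800). The lower ones were Nr4a2, Nr4a3 and Maff, all of which lost the call without S447 (adjusted p 0.146, 0.0536 and 0.137). Of 12 other AP-1 partners and competitors 4 were lower, all of the MAF family, of which Mafk (-1.15, adjusted p 0.0203) lost the call without S447 (adjusted p 0.0986) and Mafg (-0.32, adjusted p 0.0191) without S449 (adjusted p 0.132), while Maf (-0.79, adjusted p 0.00393) kept it in all 8 fits without 1 mouse. Among the corepressors Nab1 was lower by -0.31 (SE 0.10, adjusted p 0.0354), which passed in 2 of 8 fits without 1 mouse, and Nab2 differed by 0.03 (SE 0.27). Of 15 upstream factors 2 were higher and 2 lower, with Elk1 at 0.63 and Crem at -0.65 (SE 0.11, adjusted p 0.00105). Of 11 MAP kinase and JNK pathway kinases 1 was lower, Mapk9 at -0.43 (adjusted p 0.000328). Of 21 target genes 2 were higher and 2 lower, with Timp1 at 1.81 (SE 0.39, adjusted p 0.00422) and Flt1 at -0.63. Markers of other cell types also differed after AICAR. In HSALR 3 of 5 endothelial markers were lower, as were 5 of 6 epidermal, 2 of 7 Schwann cell and 1 of 3 smooth muscle markers, and 2 of 4 satellite cell markers were higher. The summed epidermal level was 0.242 to 0.371 CPM in HSALR and 0.243 to 87.5 CPM in controls, and with it as a covariate Jun was still called higher (adjusted p 0.00551). Only S448 of these mice, at 87.5 CPM, was above 0.371 CPM, so this fit cannot settle the part of epidermal RNA. The part of the other cells was not tested.

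With AICAR in HSALR mice, Jund and Egr3 were lower and no other of the 10 genes was called, where 26.6% of all genes tested were called, 13.7% higher and 13.0% lower. Egr3 alone was free of overlap, as 17.7% of all genes were. At an unadjusted p under 0.05 there were 5: these 2, Fos, Junb and Egr2, where 5887 of all 15487 genes tested were under it. Without S460 the calls were 5 of 10, all lower (Fos, Fosb, Fosl1, Jund and Egr3), where 4180 of all genes were called. Without both S447 and S460, a choice made after the values were seen, the calls were 6, with Fosl2, where 4184 of all genes were called. S460 was the highest of its group in 8 of the 10 genes, so leaving it out lowers the mean of that group in those. DESeq2 and limma with voom called 3 each, the third being Fos, at adjusted p 0.0292 and 0.0279. The fit to only the groups compared also called 3, the third being Fosl2 (-0.49, adjusted p 0.0276). With library size in place of TMM scaling, the share of higher genes among all calls of this comparison went from 51.3% to 30.9%, with a shift of -0.08 in the median of all genes, and Fos was called at an adjusted p of 0.0443.

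Of the 27 other immediate early genes, 2 were higher and 5 lower with AICAR in HSALR (median -0.43, against -0.02 for all genes). Nr4a3 rose from 7.05 to 23.7 CPM after vehicle to 44.4 to 147 CPM after AICAR, a log2 fold change of 2.55 (SE 0.55, adjusted p 0.00318), and Klf10, a TGF-β-inducible repressor, rose by 1.97 (SE 0.32, adjusted p 0.000491). Atf3 fell by -1.54 (SE 0.34, adjusted p 0.00381), from 102 to 255 CPM to 41.3 to 82.4 CPM, and Ccn1 fell by -1.15 (SE 0.18, adjusted p 0.000298). The upstream factor Srf fell by -0.24 (SE 0.05, adjusted p 0.00405), from 89.9 to 101 CPM to 74.6 to 85.2 CPM without overlap. Of the other upstream factors, 3 rose and 2 fell, with Crem at -0.39, Mef2d at 0.38, Crtc2 at 0.35 and Mef2a at 0.38, the last with an adjusted p of up to 0.0688 without S459, S454 or S455. Of 13 phosphatases and feedback inhibitors 6 fell and 1 rose, with Spry1, an inhibitor of receptor tyrosine kinase signalling, at -0.73 (SE 0.08, adjusted p 3.21e-05) and Dusp8, a JNK and p38 phosphatase, at -0.85 (SE 0.15, adjusted p 0.000888). Of 21 target genes 5 rose and 2 fell (median -0.04), among them the urokinase receptor Plaur at 1.19 (SE 0.26, adjusted p 0.00379), the haem oxygenase Hmox1 at 1.05 (SE 0.25, adjusted p 0.00580) and Timp1 at -1.17 (SE 0.30, adjusted p 0.0102). Neither corepressor was called, Nab1 at 0.03 (SE 0.09) and Nab2 at -0.62 (SE 0.23, adjusted p 0.0564).

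Markers of other cell types moved with this comparison. All 6 epidermal markers were lower with AICAR in HSALR, with a summed level of 0.431 to 157 CPM after vehicle and 0.242 to 0.371 CPM after AICAR. With that level as a covariate, Jund (-0.76, adjusted p 0.0463) and Egr3 (-1.36, adjusted p 0.0391) were still called, Fos was at -0.90 (adjusted p 0.167), and the calls of Nr4a3, Crem and Timp1 were lost, as were many others, with 2170 genes called in place of 4121. Of 5 fibroblast markers 3 were lower, with a summed level of 1236 to 1657 CPM after vehicle and 959 to 1285 CPM after AICAR. Of 4 satellite cell markers 1 was higher and 1 lower, of 7 macrophage and neutrophil markers 1 was higher and 1 lower, and of 5 endothelial markers 1 was higher. The epidermal level was 0.371 CPM or less in all AICAR-treated HSALR mice, so the covariate largely follows the groups and cannot be separated from AICAR. The part of these cells was not tested.

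With AICAR in control mice, Egr3 was lower and the other 9 genes were not called, where 13.2% of all genes tested were called, 8.40% higher and 4.77% lower. In 4 of the 10, Fos and Egr3 lower and Fosl1 and Junb higher, the groups did not overlap, where 33.1% of all genes did not. DESeq2 called Fos (adjusted p 0.0106), Fosl1 (0.0448) and Egr3 (0.0122), and Fos was called in 6 of 16 alternatives, at an adjusted p of 0.0106 to 0.142. Of the 27 other immediate early genes 2 were higher and 6 lower (median -0.29, against -0.01 for all genes). Nr4a3 rose from 6.69 to 58.4 CPM to 328 to 543 CPM, a log2 fold change of 4.26 (SE 0.75, adjusted p 0.00215), and Maff, a small MAF protein gene, rose by 2.25 (SE 0.49, adjusted p 0.00772). Ccn1 fell by -2.03 (SE 0.24, adjusted p 9.97e-05) and Ccn2 by -1.42 (SE 0.30, adjusted p 0.00594). Of the 21 targets 8 rose and none fell (median 0.47), led by the chemokine Ccl2 at 1.84 (SE 0.33, adjusted p 0.00256), Hmox1 at 1.65 (SE 0.32, adjusted p 0.00405) and Hbegf at 1.26 (SE 0.27, adjusted p 0.00655). Of 13 phosphatases and feedback inhibitors 2 rose and 3 fell, with Dusp2 at 2.498 (SE 0.56, adjusted p 0.00923), Dusp10 at -1.55 (SE 0.23, adjusted p 0.000639) and Spry1 at -0.70 (SE 0.11, adjusted p 0.000993). Srf was at -0.17 (SE 0.07, adjusted p 0.112), Nab1 at 0.24 (SE 0.11, adjusted p 0.180) and Nab2 at -0.15 (SE 0.30, adjusted p 0.799). With library size scaling the share of higher genes among the calls of this comparison went from 63.8% to 50.7%. Of the markers of other cell types, 1 of 4 satellite cell markers was higher and 1 lower with AICAR in controls, with a summed level of 19.8 to 21.5 CPM after vehicle and 22.6 to 29.2 CPM after AICAR. The 4 red blood cell markers were not called, with a summed level of 865 to 2206 CPM and 365 to 623 CPM, and the part of these cells was not tested.

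The AICAR effects of the 2 genotypes, HSALR minus control, were called different for 0 of the 10 genes by edgeR's quasi-likelihood test, where 0.691% of all genes were called. At an unadjusted p under 0.05 there were 3, Fosl1, Jund and Egr2, where 2324 of all 15487 genes tested were under it. Fosl1 had the widest gap, at -3.02 (SE 0.93, unadjusted p 0.00532, adjusted p 0.145), and DESeq2 called it, at an adjusted p of 0.0304, whereas limma with voom called none. Among the genes of the other lists, the effects differed for Atf3 (-2.90, SE 0.56, adjusted p 0.0290), Crem (-1.07, SE 0.16, adjusted p 0.0141) and Hbegf (-1.75, SE 0.34, adjusted p 0.0290). Atf3 was at 1.36 in controls (adjusted p 0.0541) and fell in HSALR, Crem rose in controls by 0.68 (adjusted p 0.00368) and fell in HSALR by -0.39, and Hbegf rose in controls and was at -0.49 in HSALR (adjusted p 0.0844). The calls of Atf3 and Hbegf were each lost in 9 of 16 fits that left out 1 mouse, with adjusted p-values up to 0.0909, and that of Crem in none. The genotype and AICAR contrasts share groups of mice: the vehicle-treated HSALR mice, in which Fosl1, Atf3 and Hbegf were highest, enter both the genotype contrast after vehicle and the AICAR contrast in HSALR.

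**Figure D3:**
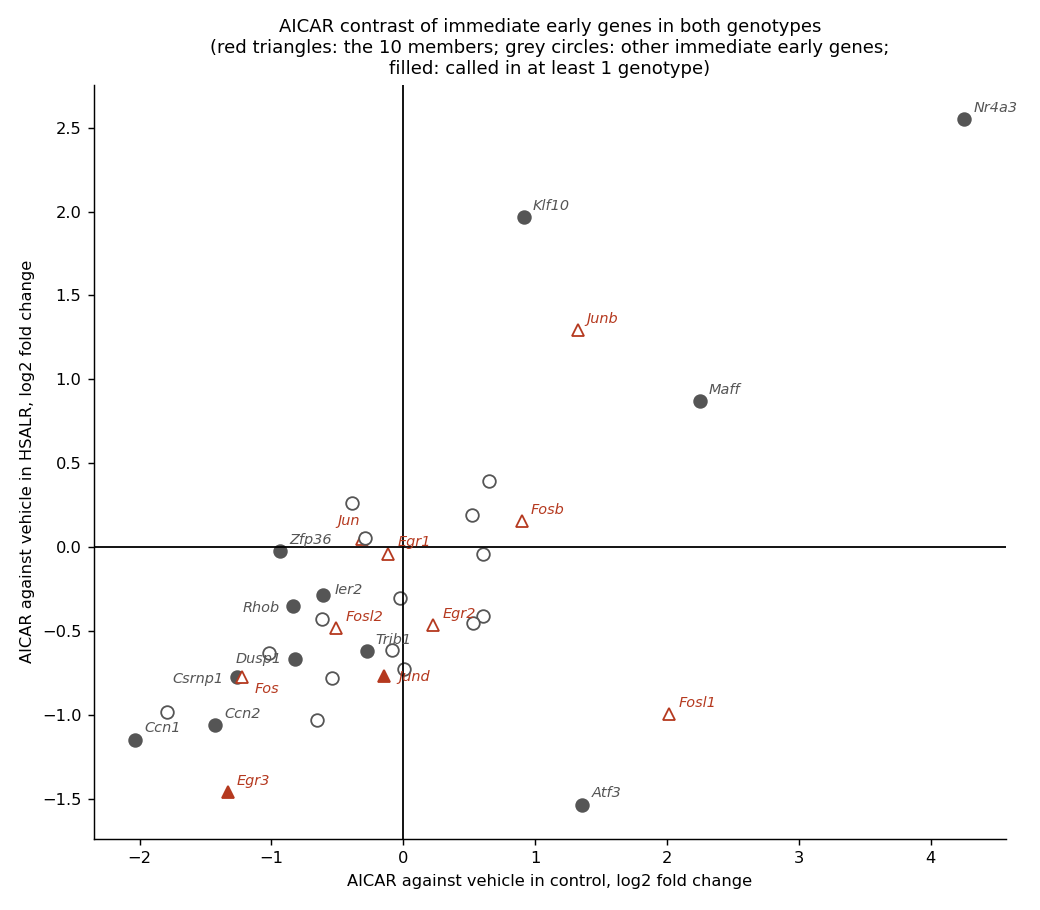
Log2 fold change with AICAR in controls (horizontal) and in HSALR mice (vertical) for the 10 genes (red triangles) and 27 other immediate early genes (grey circles), filled where called in at least 1 genotype. Egr3 lies low in both genotypes (-1.33 and -1.46), Nr4a3 high in both (4.26 and 2.55), and Atf3 and Fosl1 lie to the right of 0 in controls and below 0 in HSALR.

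The shares that each gene held of its family's RPKM are given as ranges over mice and were not tested, and in these comparisons the levels of 17.7 to 33.1% of all genes did not overlap between groups. Jun held 48.7 to 57.0% of JUN family RPKM in vehicle-treated controls and 59.6 to 70.8% in vehicle-treated HSALR mice, without overlap. Jund held 22.2 to 31.0% in vehicle-treated and 11.8 to 15.9% in AICAR-treated HSALR mice, and 22.1 to 28.5% and 17.2 to 21.5% in the controls, in both genotypes without overlap. After AICAR its shares in HSALR mice and controls did not overlap either. In the controls Junb held 14.5 to 28.6% after vehicle and 34.0 to 63.0% after AICAR, without overlap, while the CPM of Jund overlapped there, so that its lower share stood beside a higher share of Junb. In HSALR Junb held 7.04 to 15.1% after vehicle and 8.57 to 55.5% after AICAR, and the highest shares in these groups were those of S447 (63.0%) and S460 (55.5%). In the FOS family, Fos and Fosl2 together held nearly all of the RPKM in every mouse, Fos 18.7 to 59.0% and Fosl2 37.4 to 75.9%, with ranges that overlapped between groups in all 4 comparisons, while Fosb held at most 7.44% and Fosl1 at most 4.34%. Egr1 held 70.1 to 88.2% of the EGR family. Its share was 71.4 to 81.5% in vehicle-treated and 85.2 to 88.2% in AICAR-treated HSALR mice, without overlap, while its ranges in controls overlapped. Egr3 held 9.42 to 17.1% in vehicle-treated and 3.38 to 6.52% in AICAR-treated HSALR mice, and 7.50 to 18.7% and 2.80 to 7.28% in the controls, in both genotypes without overlap.

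**Figure D4:**
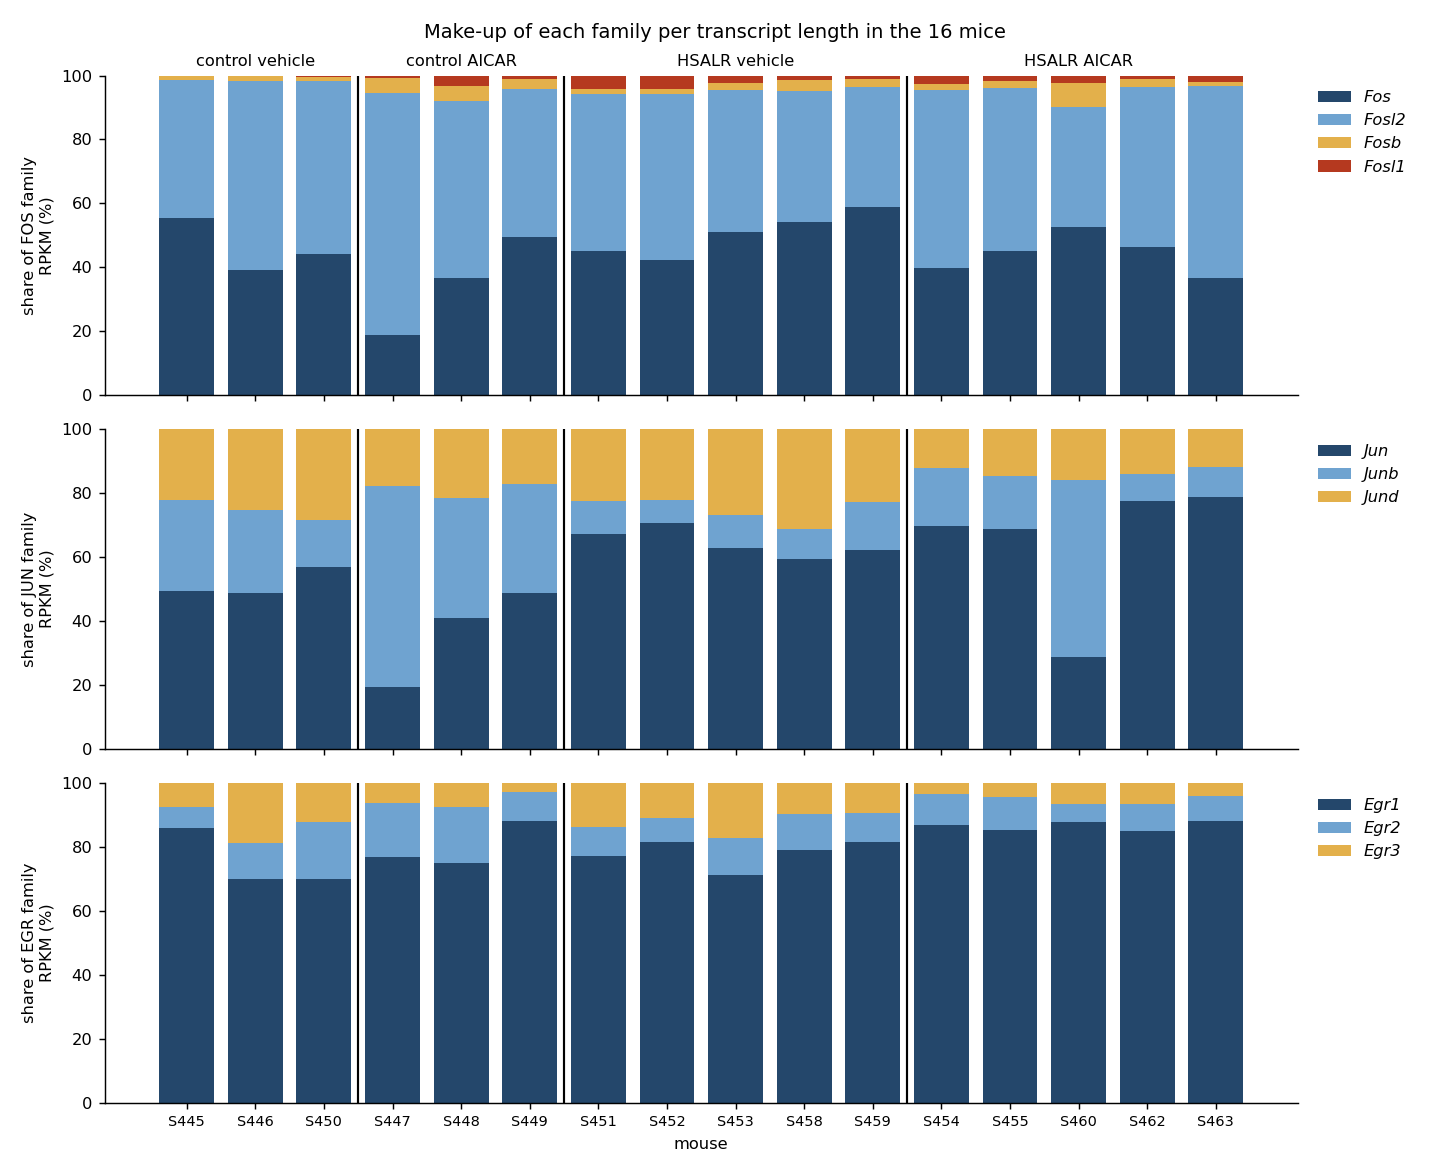
Share of each family's summed RPKM (vertical axes, percent) held by each gene in the 16 mice, by group. The Junb segment is largest in S447 at 63.0% and S460 at 55.5%, and the Jund segment shrinks from 22.2 to 31.0% to 11.8 to 15.9% between the HSALR groups.

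The extreme values of the AICAR-treated HSALR group lay mostly in S460. Against the mean of the other 4 mice, S460 was 8.24 times as high in Fosb, 5.72 times in Junb, 2.84 times in Fosl1, 2.74 times in Fos, 2.46 times in Egr3 and 1.72 times in Egr1, while it was 0.525 times as high in Jun, its lowest. It was the highest of the 5 mice in 8 of the 10 genes and in 22 of the 27 other immediate early genes (81.5%), against 25.0% of 15450 tested genes with a matched symbol. In the AICAR-treated controls, S447 was 2.76 times the mean of the other mice in Junb, 2.49 times in Fosl2 and 1.98 times in Fosb, but 0.718 times in Fos and 0.622 times in Egr1. It was the highest of 3 in 4 of the 10 genes and in 19 of the 27 (70.4%), against 32.5% of all. In the vehicle-treated controls, S446 was the highest of 3 in 7 of the 10 genes. It was also the highest in 16 of the 27 (59.3%), against 35.5% of all. In the summed levels of markers, S460 was the highest of its group in adipocyte markers, at 109 CPM against 47.2 to 104 CPM in the others, and the lowest in muscle fibre (106720 CPM), Schwann cell (118 CPM), endothelial (226 CPM) and epidermal (0.242 CPM) markers. It had 114 CPM of macrophage and neutrophil markers, the second highest. The part of these cells in its values was not tested.

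**Figure D5:**
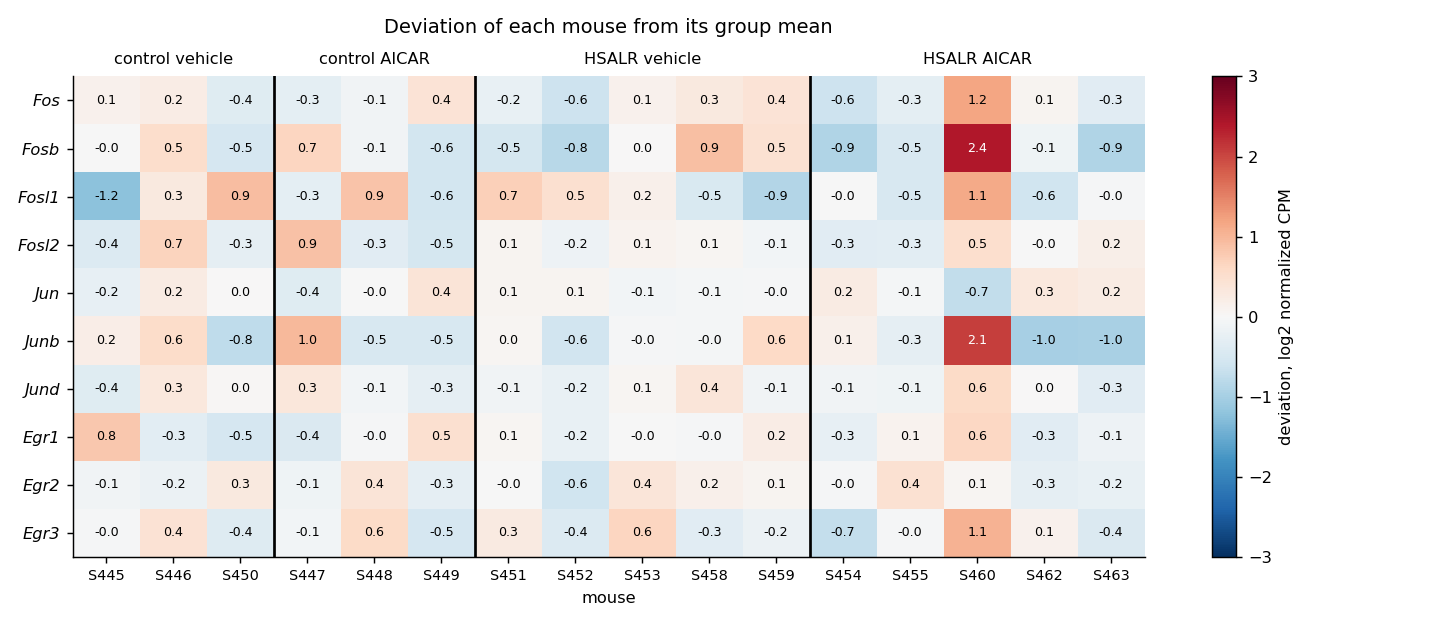
Deviation of each mouse from its group mean (color and number, log2 normalized CPM) for the 10 genes, mice in columns by group. S460 stands at 2.4 in Fosb and 2.1 in Junb and at -0.7 in Jun, and the farthest value of any other mouse is the -1.23 of S445 in Fosl1, where it had 0 counts.

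Across the 16 mice, with group means removed, 6 pairs were examined. Fos went with Fosb (Pearson r 0.820, permutation p 0.00815, adjusted 0.0244; Spearman rho 0.691, permutation p 0.0104, adjusted 0.0529) and with Egr1 (r 0.632, permutation p 0.00720, adjusted 0.0244; rho 0.600, permutation p 0.0176, adjusted 0.0529). Without the 2 mice farthest from the median of Fos, S454 and S460, r was 0.533 for Fosb (permutation p 0.115) and 0.468 for Egr1 (permutation p 0.123), so neither held without those mice. Without S447 and S460 instead, r was 0.792 for Fosb (permutation p 0.00805, adjusted 0.0483) and 0.391 for Egr1 (permutation p 0.196, adjusted 0.540). The other pairs did not pass: Fos with Junb (r 0.594, rho 0.441, adjusted permutation p 0.175), Fos with Jun (r -0.450, rho -0.265, adjusted 0.308), Egr1 with Egr2 (r 0.0432, rho 0.188, adjusted 0.871) and Egr1 with Egr3 (r 0.264, rho 0.209, adjusted 0.437). Among 12502 tested genes with a mean of at least 1 CPM, those whose deviations went most closely with Fos over the 16 mice were Ahnak (r 0.925), Cep170b (0.916), Arhgap21 (0.914), Cped1 (0.887) and Fam78a (0.853). For Jun they were Ankrd27 (r 0.920), Zap70 (0.914), Agap1 (0.908), Ttf1 (0.891) and Inpp4a (0.888), and for Egr1 Ets2 (r 0.852), Adss (0.817), Map9 (0.814), Ube2n (0.805) and Ndc1 (0.804). Without S447 and S460, r for the same genes was 0.819 to 0.873 with Fos, 0.598 to 0.825 with Jun and 0.782 to 0.853 with Egr1. These are the highest of many values, from mice that share libraries with the genes compared, and are a description.

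A further feature, which the choice by name did not use, was looked at in the RNAs of the 10 genes. ATTTA, the core of AU-rich elements that mark short-lived RNAs, was found in the 3′UTR of all 10 in the GENCODE vM21 transcripts, as in 69.3% of 13659 tested coding genes. Fos had 4 in 815 bases, or 4.91 per kilobase, above 93.2% of tested genes, and Junb 4.12 and Jun 3.24 per kilobase, above 89.7% and 82.5%. Fosb, with 1 in 2145 bases, or 0.466 per kilobase, lay below the median gene at 1.32. Of the other genes called in a comparison, Egr3 had 2.65, Jund 1.88 and Fosl1 1.57 per kilobase.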

How the data were processed

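Gastrocnemius RNA of 16 mice was sequenced by the authors from stranded, single-end TruSeq libraries, mapped to mm10 with STAR 2.5.2a and counted over RefSeq exons with QuasR. The deposited values are read counts per Entrez gene with a gene length, and whether strand was used in counting is not given in the sources used here. A read with several equal hits was assigned to 1 location, so reads of near-identical genes can be split. Groups came from genotype and treatment in the labels, and 0 columns of other samples were left out.

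Counts were filtered with filterByExpr, scaled by TMM and tested in 1 fit over the 4 groups with edgeR 4.0.16 (quasi-likelihood, R 4.3.3), with Benjamini-Hochberg adjustment over 15487 genes at 0.05. RPKM used the deposited lengths. Relations were tested on deviations of log2 CPM from group means by permutation (100000 resamples, two-sided, SciPy 1.17.1, NumPy 2.4.6). Library totals were 64890014 counts or more. Symbols matched 24374 of 24454 Entrez identifiers, and coordinates and sequences are those of RefSeq on GRCm38.p6 and GENCODE vM21. Figures were drawn with matplotlib 3.10.9 in Python 3.11.15.

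Every member was named, and of each other list at most the 4 called genes with the largest change, plus Nab1, Nab2 and Srf, and for Fos, Jun and Egr1 the 5 genes of highest Pearson r with a mean of at least 1 CPM. The members and lists were chosen with earlier results of these data known. Alternatives were scaling by relative log expression or library size, no filter, at least 10 counts in every library, robust dispersion, only the groups compared, limma 3.58.1 with voom, DESeq2 1.42.0 and leaving out each mouse. A fit without S447 and S460 and one with the log2 epidermal marker level (prior 0.01) as a covariate, and the r of the most alike genes without S447 and S460, were chosen after seeing the data. The tests were tested on simulated data with known changes.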

Additional observations from a re-analysis of the deposited data

Results flagged for a closer look

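In the AICAR-treated HSALR group, S460 lay far above the other 4 mice in 4 genes. Fos was 16.53 CPM in S460 against 4.732 to 7.733 in the others. Fosb was 4.211 CPM against 0.3977 to 0.703. Fosl1 was 0.5833 CPM against 0.1562 to 0.2469. Junb was 112.2 CPM against 13.29 to 29.43. A value was taken as far from the rest where its gap to the nearest mouse, divided by the range of the group, was above Dixon's 95% critical value for groups of 5. These are 4 of 20 groups of 5 examined for the 10 genes, where 1 would be expected by chance if CPM were normally distributed. All 4 are the same mouse, so they are not independent of each other. The share over all genes is not given here. Groups of 3 were not examined in this way.

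The AICAR effects of the genotypes, HSALR minus control, differed for 3 genes of the other lists by the interaction term of edgeR's quasi-likelihood test. Atf3 differed by -2.895 on the log2 scale (adjusted p 0.0290), with group means of 13.7 and 35.3 CPM in vehicle-treated and AICAR-treated controls and 164 and 56.5 CPM in HSALR. Crem, which encodes a cAMP-responsive modulator, differed by -1.067 (adjusted p 0.0141), with 10.6 and 16.99 CPM in controls and 14.3 and 10.9 CPM in HSALR. Hbegf differed by -1.754 (adjusted p 0.0290), with 8.54 and 20.5 CPM in controls and 25.9 and 18.4 CPM in HSALR.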

How the results depend on the processing

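Among the 109 values that the alternatives gave for the 6 calls of the 10 genes, 95 stayed past the threshold, 14 missed it and 0 turned direction. The mice shared no replicate numbers between groups: No paired analysis was possible because each mouse has its own identifier. The cause of the changes below was not tested. The fewest counts, 0 to 62 in a library, stand behind Fosl1, and groups of 3 limit the contrasts in controls.

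With AICAR in controls, the calls among the 10 went from 1 to 0 with no filter, robust dispersion or the epidermal covariate, to 2 with at least 10 counts in every library or without S447 and S460, and to 3 with DESeq2, and all genes called from 2039 to 1164 with only the groups compared. After vehicle, HSALR against control gave 1 in place of 2 with at least 10 counts in every library, where Fosl1 was not tested. Without S447 and S460 there were 2 in place of 1 after AICAR and 6 in place of 2 with AICAR in HSALR. Of all genes, 2504 and 4184 were called in these fits, in place of 3379 and 4121. With AICAR in HSALR the epidermal covariate gave 2170 genes in place of 4121. For the difference of the AICAR effects, DESeq2 called 1 of the 10 in place of 0, and all genes called went from 107 to 536 with DESeq2, 201 without S447 and S460 and 60 with the covariate. Related pairs went from 2 to 0 without the 2 farthest mice and to 1 without S447 and S460. Leaving out 1 mouse gave 1 to 2 calls among the 10 in HSALR against control after vehicle, 1 to 3 after AICAR, 2 to 5 with AICAR in HSALR and 0 to 1 in controls, and 2214 to 3790 genes after AICAR, 1143 to 1726 with AICAR in controls and 15 to 371 for the difference.

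The values that turned sign belong to contrasts that were not called with all mice, but Fosb with AICAR in HSALR was called once turned, without S460 (-1.13, adjusted p 0.0393) and without S447 and S460 (adjusted p 0.0323). In HSALR against control after vehicle, Srf was -0.00641 with relative log expression, -0.00639 with DESeq2 and -0.00727 without S447 and S460. With library size, Jun was -0.0338 and Nab1 -0.046 with AICAR in HSALR, and Fosl2 -0.0284 in the difference. With voom, Nab2 was -0.00933 in HSALR against control after AICAR, Fosb -0.433 with AICAR in HSALR and Egr1 -0.0507 in the difference. Without S447 and S460, Fosl1 was -0.208, Fosl2 0.169, Egr3 -0.0511 and Nab2 -0.0264 in HSALR against control after AICAR, Fosb -1.12 and Nab1 -0.0416 with AICAR in HSALR, Egr1 0.076 with AICAR in controls, and Fos -0.111 and Egr1 -0.306 in the difference. With the covariate, Nab2 was -0.0925 in HSALR against control after AICAR, Fosb -0.0144 with AICAR in HSALR, and Fosl2 -0.198 and Egr1 -0.256 in the difference. The relation of Fos with Jun turned to 0.296 without the 2 farthest mice and 0.0691 without S447 and S460, that of Egr1 with Egr3 to -0.0395 and -0.0848, and that of Egr1 with Egr2 to -0.0434 in the latter.

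Leaving out 1 mouse also turned signs. After vehicle, HSALR against control ran from -0.00563 to 0.276 for Fos, -0.481 to 0.126 for Fosl2 and -0.0148 to 0.0206 for Srf. After AICAR it ran from -1.31 to 0.381 for Fosb, -0.00124 to 1.11 for Fosl1, -0.514 to 0.316 for Fosl2, -0.21 to 0.22 for Nab2 and -0.139 to 0.00241 for Srf. With AICAR in HSALR the ranges were -1.13 to 0.441 for Fosb, -0.0292 to 0.192 for Jun, -0.232 to 0.0405 for Egr1 and -0.0443 to 0.0809 for Nab1. With AICAR in controls they were -0.341 to 0.029 for Jund, -0.384 to 0.418 for Egr1, -0.0109 to 0.394 for Egr2 and -0.334 to 0.202 for Nab2. For the difference they were -0.392 to 0.604 for Fosl2, -0.986 to 0.636 for Junb, -0.458 to 0.344 for Egr1 and -0.496 to 0.232 for Egr3.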
